A study of Homo sapiens with 6 samples.

Results

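The receptors that carry death signals into cells, the decoys that bind the same ligands and their close relatives were examined in DU145, a human prostate cancer cell line derived from a brain metastasis. The 9 genes were chosen by family and role, with their FPKM differences between TAX and control libraries already known. They were taken by symbol from the 23062 identifiers listed for each library, and all 9 were found. They are the death domain receptors FAS, TNFRSF10A, TNFRSF10B, TNFRSF1A and TNFRSF21, the decoys TNFRSF6B and TNFRSF10D, and the relatives TNFRSF12A and LTBR. Wild-type DU145 cells were kept for 48 h in medium (control, n = 3 libraries) or with taraxasterol (TAX) at its half-maximal inhibitory dose (n = 3 libraries). TAX is a pentacyclic triterpene that was dissolved in DMSO. Whether the control cells received DMSO is not stated, so the effects of solvent and TAX cannot be told apart. Nothing in the labels says that the libraries of a group came from separate cultures, so a p-value measures only the spread between these libraries, which may be technical.

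Receptors of the tumor necrosis factor (TNF) family bind trimeric ligands. Those with a death domain inside the cell recruit adaptors such as FADD and TRADD, which can activate caspase 8 and apoptosis or turn on NF-kB. Decoys bind a ligand without passing on the death signal, because they are secreted or lack a complete death domain. FAS and the TRAIL receptors are known targets of p53, which is mutated in DU145 cells.

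Each library gave 1 value per gene, taken as FPKM, a measure of fragments scaled for gene length and sequencing depth, so that levels of different genes can be set side by side. The FPKM of all genes summed to between 322483 in control replicate 3 and 363724 in control replicate 1. Read counts were not used here and depth is unknown, so the precision of a value can be judged only by the spread between libraries. Groups of 3 values follow the order of replicates 1, 2 and 3. The epithelial markers KRT8, KRT18, KRT19, EPCAM and CDH1 were present, with a summed level of 428 to 545 FPKM in control and 555 to 606 FPKM in TAX libraries. All TAX values were above all control values for KRT18, KRT19 and EPCAM, while the groups overlapped for KRT8 and for CDH1, whose difference was -0.16 on the log2 scale (standard error 0.15). Among genes that DU145 cells are known to lack, KLK2, KLK3 and FOLH1 were listed at 0 in every library. A list of 8 markers of leukocytes, fibroblasts, endothelium and liver summed to 2.26 to 2.58 FPKM in control and 1.74 to 2.00 FPKM in TAX libraries. Most of this sum was COL1A1, while the T cell gene CD3E was listed at 0 in all 6 libraries and the leukocyte gene PTPRC in 5 of 6. Both marker sums moved with the treatment, and their part in the results was not tested. In bulk RNA, fewer cells of a type and less RNA per cell cannot be told apart.

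The promoters of TNFRSF6B and FAS are shown first, because the products of both genes bind the same ligand and the ratio of their levels did not overlap between the groups. The RefSeq table (GRCh38.p14) held promoters of 5 of the 9 genes. Each sequence runs from 250 bases before to 50 bases after a start site, at chr20:63696402-63696701 on the plus strand for TNFRSF6B and at chr10:88990548-88990847 on the plus strand for FAS, for which the most upstream of the listed starts was taken. Capitals mark GC boxes, the letters GGGCGG on either strand.
TNFRSF6B: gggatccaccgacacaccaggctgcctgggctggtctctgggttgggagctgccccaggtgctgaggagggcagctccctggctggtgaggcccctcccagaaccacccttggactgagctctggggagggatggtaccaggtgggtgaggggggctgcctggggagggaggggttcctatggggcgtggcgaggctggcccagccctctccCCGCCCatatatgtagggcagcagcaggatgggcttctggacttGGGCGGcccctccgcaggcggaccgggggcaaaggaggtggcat
FAS: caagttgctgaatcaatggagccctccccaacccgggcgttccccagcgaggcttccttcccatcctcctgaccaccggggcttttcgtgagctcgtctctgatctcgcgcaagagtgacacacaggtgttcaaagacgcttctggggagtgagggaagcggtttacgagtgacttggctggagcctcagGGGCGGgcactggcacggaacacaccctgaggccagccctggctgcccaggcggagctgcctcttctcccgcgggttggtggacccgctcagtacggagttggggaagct
The TNFRSF6B window held 2 GC boxes, whose first bases are at -38 and 6 from the start site, and 8 CG dinucleotides. The FAS window held 1 GC box, whose first base is at -60 from the start site, and 18 CG dinucleotides. Of 35116 promoters of this length, 45% held a GC box. Neither window held TATAAA or TATATA, which occurred in 11.5% and 3.99% of the promoters. The AP-1 motif TGANTCA was found once in the FAS window, at -242, and in 7.71% of all promoters. All motifs were searched on both strands.

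In control cells the levels of the 9 genes spanned a range of 28.9-fold between the highest and the lowest. TNFRSF12A, the receptor for the cytokine TWEAK (TNFSF12), was highest with 96.2 ± 10.6 FPKM (SD, n = 3). It was followed by TNFRSF1A, the main receptor for TNF, with 72.6 ± 8.65 FPKM, by TNFRSF10B, a receptor for TRAIL (TNFSF10), with 65.0 ± 9.37 FPKM, and by LTBR, the lymphotoxin beta receptor, with 54.6 ± 8.17 FPKM (SD, n = 3 each). The control ranges of TNFRSF1A and TNFRSF10B overlapped, as did those of TNFRSF10B and LTBR, so the order of these neighbours was not beyond the spread. TNFRSF21, TNFRSF10D and TNFRSF10A formed a lower tier with 16.8 ± 1.95, 16.7 ± 0.955 and 15.4 ± 1.03 FPKM (SD, n = 3 each), and the ranges of neighbours in that order overlapped too. FAS, with 7.33 ± 0.678 FPKM, and TNFRSF6B, with 3.33 ± 0.278 FPKM, were lowest (SD, n = 3 each), and their ranges were separate from each other and from the tier above. Among the 12359 genes tested, TNFRSF12A lay at percentile 96 of the control level, FAS at percentile 41.9 and TNFRSF6B at percentile 21.5.

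**Figure D1:**
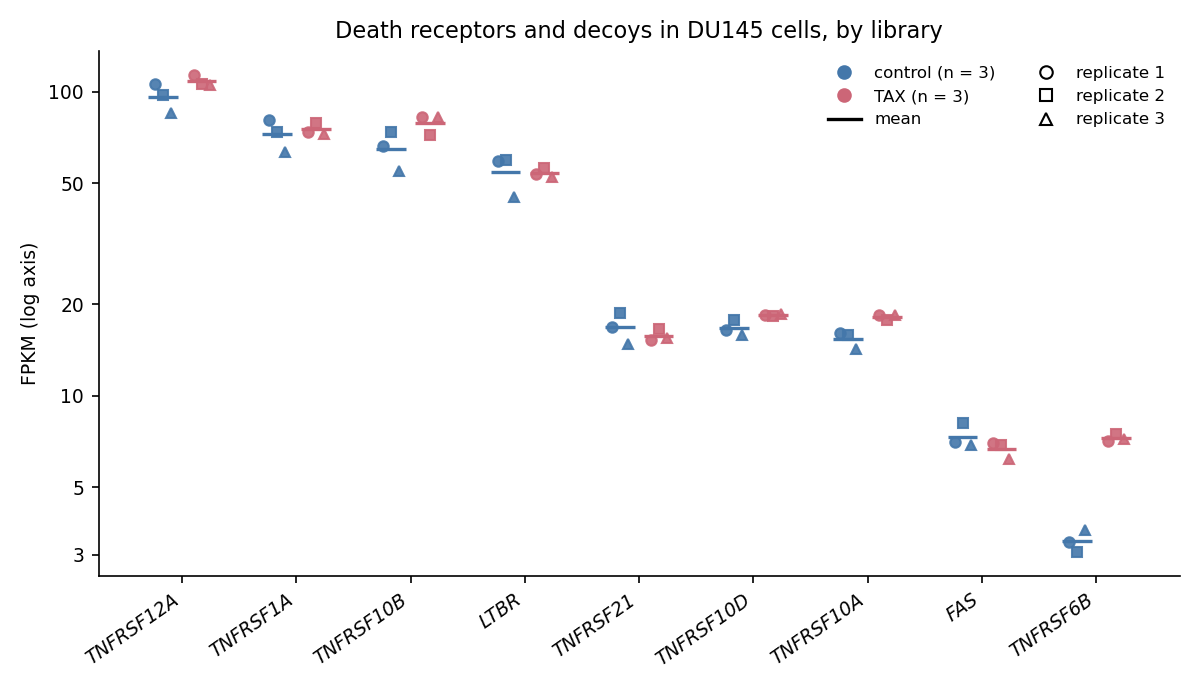
Level of each gene in FPKM (log axis) in the 3 control and the 3 TAX libraries, with points for libraries and lines for group means. TNFRSF6B moved from 3.06 to 3.62 FPKM in control to 7.08 to 7.49 FPKM in TAX libraries. For the other 8 genes the TAX mean was 0.913 to 1.22 times the control mean, and single libraries varied more.

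In TAX-treated cells the order changed at 3 places. TNFRSF6B passed FAS, TNFRSF10B passed TNFRSF1A, and TNFRSF21 became the lowest of its tier. The ranges of TNFRSF10B and TNFRSF1A still overlapped in TAX libraries, while all 3 TNFRSF6B values (7.08 to 7.49 FPKM) lay above all 3 FAS values (6.22 to 6.98 FPKM). All 9 genes had a smaller SD of FPKM in TAX than in control libraries. The share of all genes with a smaller SD in TAX libraries was not counted, so nothing is read from this about the 9 genes. Control replicate 3 held the lowest FPKM of 7 of the 9 genes and also the lowest summed FPKM of all genes. After each library was rescaled to the same summed FPKM, it was the lowest for 5 of the 9.

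TNFRSF6B encodes a secreted decoy that binds FAS ligand (FASLG), LIGHT (TNFSF14) and TL1A (TNFSF15). Its level was 3.30, 3.06 and 3.62 FPKM in the controls, against 7.08, 7.49 and 7.20 FPKM after TAX. Every TAX library was therefore above every control library, with a gap wider than the range within either group. The mean rose from 3.33 ± 0.278 to 7.26 ± 0.209 FPKM (SD, 3 libraries each), a ratio of 2.18, and the difference of log2(FPKM + 1) was 0.93 (standard error 0.081). This scale understates changes at low levels. The genes were proposed with the result of this contrast known, so the values of all 9 are a description. In the fit over all genes, TNFRSF6B ranked 5 by the size of its rise and 2 by p among the 12359 genes tested.

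TNFRSF6B lies on chromosome 20 from 63696651 to 63698684 on the plus strand (GENCODE 29, GRCh38), as a gene of 2034 bp with 1141 exonic bases. It begins 398 bases after the end of RTEL1, which encodes a helicase that maintains telomeres. The read-through gene RTEL1-TNFRSF6B joins both genes, and all of the 1141 exonic bases of TNFRSF6B are also exonic in it. Every stretch of 50 bases in the TNFRSF6B transcript occurs in a transcript of RTEL1-TNFRSF6B, so reads from the decoy can be told from those of the read-through only by the tool that assigned them. On the other strand ARFRP1 covers 43 exonic bases at the end of TNFRSF6B, and whether the library kept the strand is not given in the sources used here. RTEL1-TNFRSF6B was listed at 0.494, 0.300 and 0.122 FPKM in the controls, against 0.208, 0.341 and 0.392 FPKM after TAX. These values were low and the groups overlapped. RTEL1 itself had 3.73 ± 0.552 FPKM without and 4.48 ± 0.258 FPKM with TAX (SD, 3 libraries each). The ratio of TNFRSF6B to RTEL1 within a library was 0.791, 0.780 and 1.16 in control and 1.502, 1.652 and 1.712 in TAX libraries, without overlap.

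**Figure D2:**
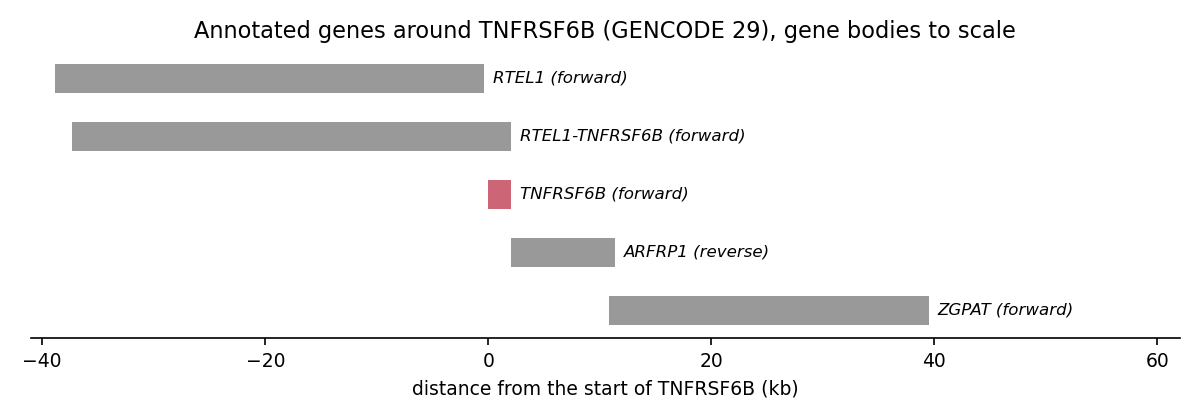
Gene bodies around TNFRSF6B drawn to scale by their distance in kb from its start, in GENCODE 29. RTEL1-TNFRSF6B spans RTEL1 and all of TNFRSF6B on the same strand, and ARFRP1 on the reverse strand overlaps the last 43 bases.

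FAS, the death domain receptor for FAS ligand, lies on chromosome 10 from 88990582 to 89015785 on the plus strand. Its level was 7.02, 8.11 and 6.87 FPKM in the controls, against 6.98, 6.88 and 6.22 FPKM after TAX. The groups overlapped, with the highest value in control replicate 2 and the lowest in TAX replicate 3. The difference of log2(FPKM + 1) was -0.11 (standard error 0.088), with a 95% interval of -0.31 to 0.081. ACTA2 overlaps FAS on the other strand, and 7.09% of the 50-base stretches in FAS transcripts also occur, on either strand, in ACTA2 transcripts. The ratio of the decoy to the receptor for FAS ligand within a library needs no scaling between libraries. TNFRSF6B was at 0.469, 0.378 and 0.527 times the FPKM of FAS in control replicates 1, 2 and 3. In TAX replicates 1, 2 and 3 it was at 1.01, 1.09 and 1.16 times the FPKM of FAS. The mean ratio was 0.458 ± 0.0751 in control and 1.09 ± 0.0716 in TAX libraries (SD, n = 3 each).

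**Figure D3:**
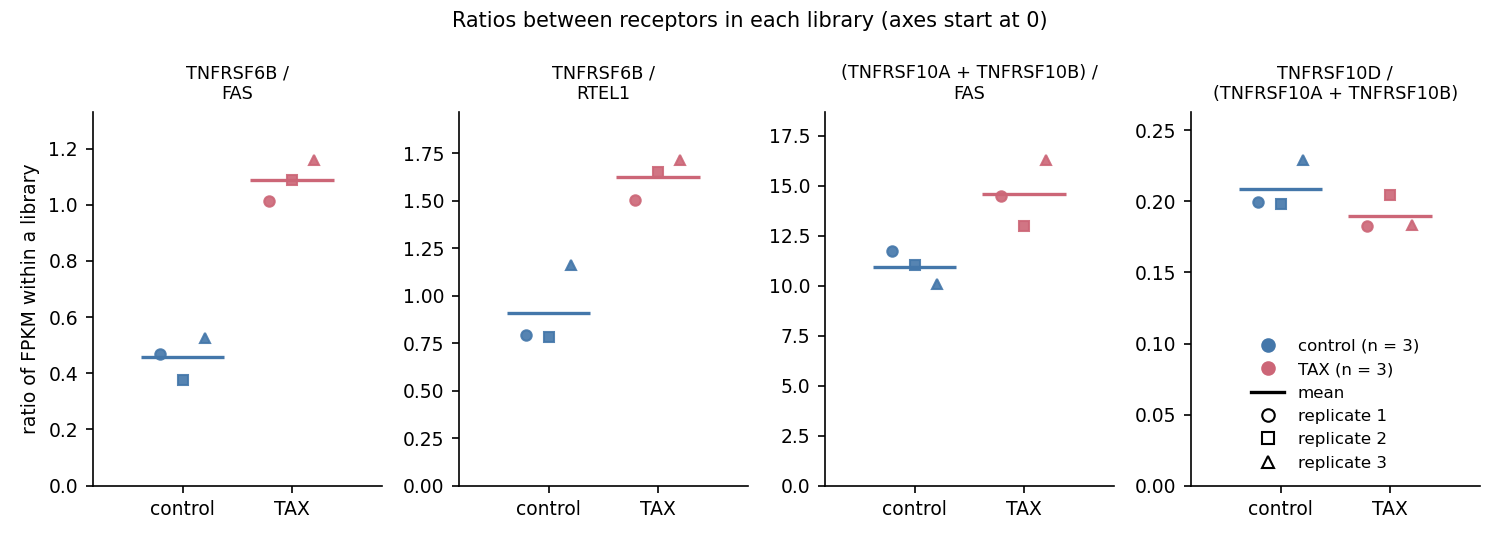
Ratios of FPKM between receptors within each library, with points for libraries, lines for group means and axes that start at 0. The ratios of TNFRSF6B to FAS, of TNFRSF6B to RTEL1 and of the TRAIL receptors to FAS lay higher in every TAX library, while TNFRSF10D to TNFRSF10A plus TNFRSF10B overlapped between groups.

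TNFRSF10A and TNFRSF10B encode the death receptors for TRAIL, and TNFRSF10D encodes a TRAIL decoy with a truncated death domain. All 3 lie on chromosome 8 on the minus strand, TNFRSF10B from 23020133 to 23069179, TNFRSF10D from 23135588 to 23164030 and TNFRSF10A from 23190452 to 23225126. TNFRSF10A had 16.1, 15.8 and 14.2 FPKM in the controls, against 18.4, 17.7 and 18.5 FPKM after TAX. All TAX values were above all control values, and the difference of log2(FPKM + 1) was 0.23 (standard error 0.080, 95% interval 0.053 to 0.41). Of its 50-base stretches 12.4% also occur in transcripts of other genes, mainly the antisense transcripts TNFRSF10A-AS1 and AC100861.1. TNFRSF10B had 66.3, 73.6 and 55.0 FPKM in the controls, against 82.7, 71.8 and 82.7 FPKM after TAX. TAX replicate 2 lay below control replicate 2, so the groups overlapped, although the difference was the second largest of the 9 genes at 0.29 (log2 scale, standard error 0.11). Without control replicate 3 it was 0.17, and without control replicate 2 it was 0.38. TNFRSF10D had 16.4, 17.7 and 15.8 FPKM in the controls, against 18.5, 18.3 and 18.5 FPKM after TAX. Its TAX values lay within a narrow range just above the control values, with a difference of 0.14 on the log2 scale (standard error 0.077).

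Within a library, TNFRSF10D was at 0.199, 0.198 and 0.229 times the summed FPKM of TNFRSF10A and TNFRSF10B in control and at 0.183, 0.204 and 0.183 times that sum in TAX replicates 1, 2 and 3. The balance of TRAIL decoy to TRAIL death receptors therefore overlapped between the groups. The ratio of TNFRSF10B to TNFRSF10A was also within the spread, with 4.21 ± 0.396 in control and 4.34 ± 0.250 in TAX-treated cells (SD, n = 3 each). In contrast, the summed FPKM of both TRAIL death receptors relative to FAS was 11.7, 11.0 and 10.1 in control and 14.5, 13 and 16.3 in TAX replicates 1, 2 and 3. This ratio did not overlap between the groups.

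TNFRSF1A, whose death domain binds TRADD, lies on chromosome 12 from 6328757 to 6342114, and LTBR, which has no death domain and feeds the noncanonical NF-kB pathway, lies 32930 bases away from 6375045 to 6391571. TNFRSF1A had 80.5, 73.9 and 63.3 FPKM in the controls, against 73.9, 79.0 and 72.7 FPKM after TAX. LTBR had 59.1, 59.4 and 45.1 FPKM in the controls, against 53.5, 56.2 and 52.5 FPKM after TAX. In both genes the TAX values lay inside the control range. The difference on the log2 scale was 0.056 for TNFRSF1A (95% interval -0.16 to 0.28) and -0.0023 for LTBR (95% interval -0.24 to 0.24). The sign of these small differences depended on the setting, being negative for TNFRSF1A in 3 and positive for LTBR in 4 of 14 alternatives. The ratio of TNFRSF1A to LTBR was 1.34 ± 0.0822 in control and 1.39 ± 0.0134 in TAX-treated cells (SD, n = 3 each), and the groups overlapped.

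TNFRSF21, a death domain receptor with roles in neurons and lymphocytes, lies on chromosome 6 from 47231532 to 47309905. It had 16.8, 18.7 and 14.8 FPKM in the controls, against 15.2, 16.6 and 15.4 FPKM after TAX. The TAX values again lay inside the control range, with a difference of -0.080 on the log2 scale (standard error 0.094). TNFRSF12A, which lacks a death domain and signals through TRAF proteins, lies on chromosome 16 from 3018445 to 3022383. Its level was 106, 97.3 and 85.1 FPKM in the controls, against 114, 106 and 106 FPKM after TAX. The groups met at about the same value, since control replicate 1 was as high as TAX replicate 2, and the difference was 0.18 on the log2 scale (standard error 0.097). After each library was rescaled to the same summed FPKM, all TNFRSF12A values were higher in TAX than in control libraries.

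By role, the summed level of the 5 death domain receptors was 154 to 190 FPKM in control and 192 to 197 FPKM in TAX libraries. The 2 decoys together had 19.5 to 20.8 FPKM in control and 25.5 to 25.8 FPKM in TAX libraries. TNFRSF12A and LTBR together had 130 to 165 FPKM in control and 158 to 167 FPKM in TAX libraries, which overlapped. These sums were not rescaled, and each was lowest in control replicate 3, the library with the lowest summed FPKM of all genes. After rescaling to the same summed FPKM, FAS, TNFRSF10B, TNFRSF1A and TNFRSF21 each overlapped between the groups, while TNFRSF10A did not. The death domain sum was 190 FPKM in control replicate 2 and 192 FPKM in TAX replicate 2. All genes summed to 349476 FPKM in the former and to 358033 FPKM in the latter. Relative to all genes the death domain sum was thus lower in TAX replicate 2 than in control replicate 2. Its groups therefore overlap after rescaling, so its separation depends on the scaling. Of the summed FPKM of all 9 genes, death domain receptors held 50.2% to 51.7% and decoys 5.30% to 6.79% in the 6 libraries.

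**Figure D4:**
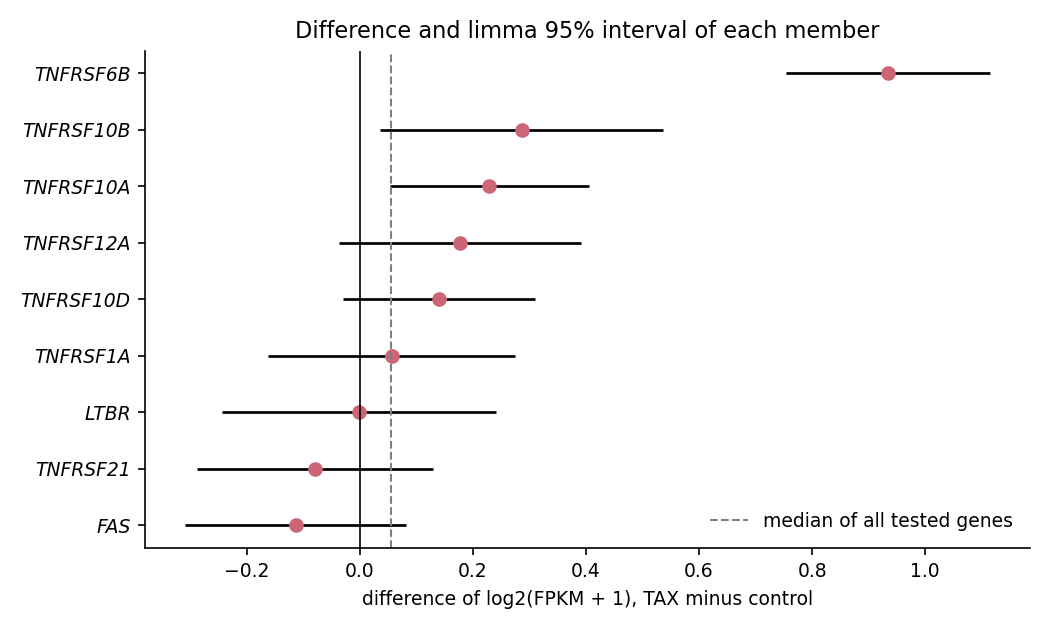
Difference of log2(FPKM + 1) between TAX and control for each gene (points) with limma 95% intervals (lines), and the median of all tested genes as a dashed line. TNFRSF6B stands at 0.93, and the other 8 genes lie between -0.11 and 0.29.

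Expression was compared with limma over the 12359 genes that reached 1 FPKM in 3 or more libraries, a filter that all 9 genes passed. At an adjusted p under 0.05, 1 of the 9 genes was called, TNFRSF6B, beside 0.477% of all genes tested. Over all genes, 39 rose (0.316%) and 20 fell (0.162%), or 47 and 48 after quantile normalization and 46 and 50 after centring on the median. The call of TNFRSF6B held in 13 of 14 alternatives and was lost in the fit with no filter on low values. The groups did not overlap for 3 of the 9 genes, TNFRSF6B, TNFRSF10A and TNFRSF10D, and for 17.9% of all genes. TAX libraries were above for all 3, beside 14.6% of all genes, and below for 0, beside 3.34%. After rescaling to the same summed FPKM they did not overlap for 4 of the 9 genes and for 19.6% of all genes. The median log2 difference was 0.14 for the 9 genes and 0.054 for all genes tested, 69.1% of which had a difference above 0. Because the contrast was known when the 9 genes were chosen, nothing is read from these counts.

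The 5 genes whose log2(FPKM + 1) ran most like that of TNFRSF6B over the 6 libraries were TFCP2L1, TOMM70, STMN3, MRPL15 and MAP4K4, with Pearson's r of 0.991 to 0.997. These points are 6 libraries in 2 groups, which share the split between control and TAX. Pearson's r does not depend on the size of a change. The ratio of TAX to control mean was 1.22 for TFCP2L1, 1.075 for TOMM70 and 1.28 for MRPL15, against 2.18 for TNFRSF6B. Their adjusted p from limma was 0.495 for TFCP2L1, 0.657 for TOMM70 and 0.103 for MRPL15. STMN3, which encodes a stathmin-like protein, lies on chromosome 20 on the far side of RTEL1, from 63639705 to 63657682 on the minus strand. Its level was 0.986, 0.882 and 1.04 FPKM in the controls, against 1.46, 1.56 and 1.47 FPKM after TAX. STMN3 therefore passed the filter of 1 FPKM only through its TAX libraries. MAP4K4, a kinase of the JNK pathway, rose from 40.8 ± 0.604 to 58.0 ± 0.846 FPKM (SD, 3 libraries each), with a limma adjusted p = 0.0217.

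Of 18 genes for TNF family ligands, 5 passed the filter. None of these was called by limma at an adjusted p under 0.05, beside 0.477% of all genes. At an unadjusted p under 0.05, 1 was lower, TNFSF13, beside 2.41% of all genes. CD70 and TNFSF9, ligands of the costimulatory receptors CD27 and TNFRSF9, had the highest levels of the tested ligands, with 20.3 and 13.9 FPKM on average over the 6 libraries. TNFSF12, the ligand of TNFRSF12A, had 5.77 ± 0.482 FPKM without and 5.82 ± 0.626 FPKM with TAX (SD, 3 libraries each). The largest difference was in TNFSF13, a ligand of TNF family receptors on B cells, at -0.34 on the log2 scale (standard error 0.13, adjusted p = 0.402 from limma). FASLG was listed at 0 in all 6 libraries. TNF was listed at 0 in every control library and at 0.0475, 0.0357 and 0 FPKM in TAX replicates 1, 2 and 3. The ligands of TNFRSF6B other than FASLG were also low, TNFSF15 with 0.00447 to 0.0193 FPKM and TNFSF14 with 0.0384 to 0.342 FPKM. LTA, which encodes lymphotoxin alpha, had 0.0361 to 0.139 FPKM.

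Among the 10 ligands under the filter that were above 0 in some library, the groups did not overlap for 4, with 2 higher and 2 lower in TAX libraries, beside 10.5% of all genes of this kind. TNFSF10, which encodes TRAIL, was at 0.224, 0.172 and 0.203 FPKM in the controls, against 0.108, 0.0912 and 0.0238 FPKM after TAX. TNFSF14 was at 0.305, 0.342 and 0.228 FPKM in the controls, against 0.0922, 0.0384 and 0.0796 FPKM after TAX. LTB, a ligand subunit of LTBR, was at 0.264, 0.265 and 0.268 FPKM in the controls, against 0.485, 0.533 and 0.812 FPKM after TAX. TNFSF13B was at 0.148 to 0.199 FPKM in control and 0.205 to 0.265 FPKM in TAX libraries. An exact two-sided permutation test of any of these 4 genes gave p = 0.1, the smallest that 3 against 3 libraries allow. At these levels the depth, which is unknown, limits what can be seen.

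Of 20 further receptors of the family, 7 were tested and 0 were called by limma at an adjusted p under 0.05, beside 0.477% of all genes. An unadjusted p under 0.05 was found for 4, all higher, beside 7.73% of all genes. Their median difference was 0.31 on the log2 scale, beside 0.054 for all genes. The 4 were TNFRSF9, TNFRSF11A, RELT and TNFRSF25, and in each of them every TAX library was above every control library, as for 14.6% of all genes. TNFRSF9, a costimulatory receptor of T cells, had 3.10, 3.71 and 2.71 FPKM in the controls, against 5.06, 3.88 and 5.09 FPKM after TAX (adjusted p = 0.204 from limma). TNFRSF25, a death domain receptor for TL1A, had 2.73, 2.46 and 2.34 FPKM in the controls, against 3.00, 4.51 and 3.46 FPKM after TAX (adjusted p = 0.26 from limma). TNFRSF11A, the receptor for RANK ligand, had 1.71 ± 0.109 FPKM without and 2.47 ± 0.433 FPKM with TAX (SD, 3 libraries each), with a limma adjusted p = 0.257. RELT had 5.94 ± 0.499 and 7.59 ± 0.337 FPKM (SD, 3 libraries each), with a limma adjusted p = 0.224. CD40 had the highest level of these receptors and differed by -0.035 on the log2 scale (standard error 0.093). TNFRSF10C, a TRAIL decoy anchored to the membrane by a lipid, had 1.32, 1.35 and 1.54 FPKM in the controls, against 1.43, 2.16 and 1.13 FPKM after TAX, with overlap. TNFRSF11B, a soluble decoy that can bind TRAIL, was under the filter with 0.124 to 0.303 FPKM.

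Downstream of the receptors, 0 of the tested genes were called by limma at an adjusted p under 0.05, beside 0.477% of all genes. Over all 8 lists of ligands, receptors and signaling genes, 77 of 104 genes were tested, 18 were higher and 1 was lower at an unadjusted p under 0.05, beside 7.73% and 2.41% of all genes. When a library was left out 11 to 16 were higher, the fewest without control replicate 3 or TAX replicate 3. After quantile normalization 13 were higher and 2 lower, and after centring on the median 14 and 3. Rescaling to the same summed FPKM gave 15 higher and 1 lower, and the replicate block 11 and 1. The shares of all genes by direction were not counted in these settings. The median difference was 0.079 on the log2 scale, beside 0.054 for all genes. Without control replicate 2, 1 of them was called, TNFAIP3. This gene encodes the NF-kB feedback inhibitor A20 and had 14.4, 22.9 and 10.9 FPKM in the controls, against 27.4, 21.0 and 26.3 FPKM after TAX. Control replicate 2 lay above TAX replicate 2, so the groups overlapped, and the difference was 0.65 (log2 scale, standard error 0.21, adjusted p = 0.321 from limma).

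Of 9 adaptors and initiator caspases, 1 was higher at an unadjusted p under 0.05, beside 7.73% of all genes, and their median difference was 0.063 on the log2 scale, beside 0.054 for all genes. FADD, the adaptor of FAS and the TRAIL receptors, had 27.9 ± 0.639 FPKM without and 33.5 ± 2.36 FPKM with TAX (SD, 3 libraries each), with a limma adjusted p = 0.326. Every TAX library was above every control library. DAXX and CRADD, further adaptors, differed by 0.12 (standard error 0.099) and 0.15 (standard error 0.082) on the log2 scale. Caspase 8 (CASP8) had 20.4 ± 0.175 and 21.4 ± 1.17 FPKM (SD, n = 3 each), and its inhibitor CFLAR was at 1.70 ± 0.105 times the FPKM of CASP8 in control and 1.75 ± 0.256 times in TAX-treated cells, with overlap. Among 14 inhibitors and ubiquitin regulators, 4 were higher at an unadjusted p under 0.05, beside the same 7.73% of all genes. CYLD, a deubiquitinase, had 7.86, 9.72 and 7.72 FPKM in the controls, against 10.3, 11.7 and 12.5 FPKM after TAX (adjusted p = 0.185 from limma). BIRC5, which encodes survivin, differed by 0.19 on the log2 scale (standard error 0.085), and TNIP1, a partner of A20, by 0.20 (standard error 0.11).

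TRAF1, an adaptor induced by NF-kB, had the smallest adjusted p of the 77 genes (0.0859 from limma). It had 2.46, 2.67 and 2.04 FPKM in the controls, against 3.93, 3.30 and 3.95 FPKM after TAX, without overlap. Of 9 TRAF and TRAF-binding genes, 2 were higher at an unadjusted p under 0.05, beside 7.73% of all genes, and 3 did not overlap between the groups, beside 17.9% of all genes. TRAF3, TRAF7 and TRAF4 differed by 0.22, 0.14 and 0.066 on the log2 scale (standard errors 0.091, 0.094 and 0.094). Of 16 NF-kB components, 6 were higher at an unadjusted p under 0.05, again beside 7.73% of all genes. Their median difference was 0.11 on the log2 scale, beside 0.054 for all genes. NFKB2 and RELB, the pair of subunits of the noncanonical pathway, differed by 0.33 (standard error 0.11) and 0.30 (standard error 0.097) on the log2 scale. Their adjusted p from limma was 0.35 and 0.338. Without rescaling to the same summed FPKM, the groups did not overlap for either gene, as for 17.9% of all genes. For NFKB2 the nearest values were 50.3 FPKM in control replicate 2 and 51.1 FPKM in TAX replicate 2. All genes summed to 349476 FPKM in the former and to 358033 FPKM in the latter. Relative to that sum NFKB2 was higher in control replicate 2, so its groups overlap after rescaling. NFKBIA, the inhibitor of the canonical pathway, was the highest of the list and differed by -0.011 on the log2 scale (standard error 0.105). Of 12 tested genes of execution and necroptosis 1 was higher at an unadjusted p under 0.05, beside 7.73% of all genes. This was MLKL, with a difference of 0.24 on the log2 scale (standard error 0.098). The initiator CASP9 and the mitochondrial factors DIABLO and CYCS differed by 0.17, 0.091 and 0.088 on the log2 scale (standard errors 0.13, 0.079 and 0.081). The necroptosis kinase RIPK3 was under the filter, at 0 to 0.0425 FPKM. The sheddases ADAM10 and ADAM17, which release receptors from the cell surface, differed by -0.084 (standard error 0.079) and -0.064 (standard error 0.11) on the log2 scale. The ubiquitin ligase MARCHF8 differed by 0.078 (standard error 0.093). Of the 5 genes of shedding and turnover, 0 had an unadjusted p under 0.05 (limma), beside 10.1% of all genes.

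**Figure D5:**
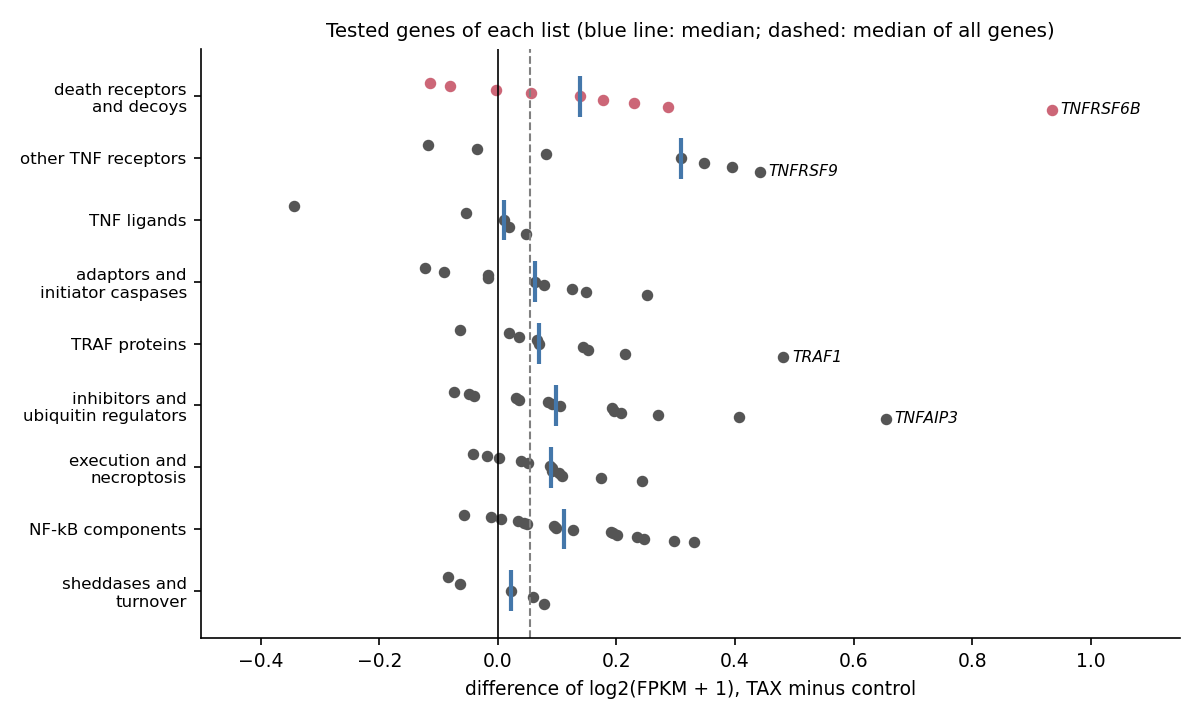
Difference of log2(FPKM + 1) between TAX and control for each tested gene (points) of the 9 death receptors and decoys and of 8 related lists, with the median of each list in blue and that of all genes dashed. TNFRSF6B at 0.93 lies apart from the other points, the next being TNFAIP3 at 0.65.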

How the data were processed

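RNA sequencing of 6 DU145 libraries (3 control, 3 TAX, 48 h) was analysed from tables of 1 value per gene and library. The authors deposited these values without naming a unit. Because they hold decimals and sum to a different total in each library, the deposited values were taken as FPKM, scaled by the authors for gene length and depth, and TPM of an incomplete table remains possible. The submitters' processing notes name HISAT2 2.2.0, StringTie 2.1.2 and GRCh38. The annotation and filters are not given in the sources used here. No step of whole reads was seen among low values (at most 5.72% of 332 genes in a log2 bin of 0.1), so depth is unknown. Genes reaching 1 FPKM in 3 or more libraries were compared on log2(FPKM + 1) with limma 3.58.1 (trend) in R 4.3.3, with Benjamini-Hochberg adjustment over all of them. The fit was tested on simulated data. Of the 5 genes listed as absent from the line, 2 are not reported here. Positions are from GENCODE 29 by gene name. Across genes, Pearson's r between libraries of a group was 0.9961 to 0.9975.

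The 9 genes and the lists were chosen with earlier results of these data known. Of the lists, called genes, the 2 highest and the 2 with the largest difference were to be named, beside the ligands of the 9 genes, the genes around TNFRSF6B and the 5 genes most like it. The following were named with their values in view (TNFRSF11A, TNFRSF10C, TNFRSF11B, TNFSF13B, CASP8, CFLAR and RIPK3). Alternatives were other filters, a pseudocount of 0.1, other scalings, limma without trend, a replicate block and leaving out each library.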

Additional observations from a re-analysis of the deposited data

How the results depend on the processing

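The number of genes called depended on the filter and on single libraries. With a filter of 0.1 FPKM 25 genes were higher and 12 lower, and with no filter, where 20280 genes were tested, 0 were higher and 1 was lower (limma, adjusted p under 0.05), with 1854 at an unadjusted p under 0.05. Leaving out each library in turn gave 9 to 28 higher and 8 to 15 lower genes, the fewest higher without TAX replicate 2 and the fewest lower without control replicate 1. Quantile normalization gave 48 lower genes and centring on the median 50. Of the 9 receptors and decoys, 1 was called in each setting except the fit with no filter, where 0 were called. The adjusted p of TNFRSF6B was 0.0777 there and 0.00134 to 0.0777 over the 14 alternatives (limma), with a log2 difference of 0.876 to 1.105. The median difference of the 9 genes was 0.078 to 0.18. The number of higher genes in the 8 related lists was 0 to 1 when a library was left out, the 1 being TNFAIP3 without control replicate 2. TNFRSF1A and LTBR changed sign in 3 and 4 of 14 alternatives, with ranges of -0.037 to 0.13 and -0.13 to 0.064, and the other 7 genes kept their sign in all 14. The difference of TNFRSF10D fell to 0.078 after quantile normalization and 0.081 after centring.

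Libraries with the same replicate number did not deviate together (correlations of -0.1173, -0.3335 and -0.1713 across genes). Libraries with different numbers gave correlations of -0.1673 to 0.2924. Deviations from the mean of 3 libraries cannot show whether libraries of the same number were prepared together. With the replicate block 13 genes were higher and 13 lower, and TNFRSF6B stayed called.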

Other observations

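Of the 7 genes around TNFRSF6B that were listed with it on chromosome 20, 6 passed the filter. In all 6 every TAX library was above every control library, as for 14.6% of all genes tested. These values were not rescaled to the same summed FPKM, and the count depends on the scaling. SLC2A4RG had 25.1 FPKM in control replicate 3 and 26.3 FPKM in TAX replicate 2. All genes summed to 322483 FPKM in the former and to 358033 FPKM in the latter. Relative to that sum SLC2A4RG was higher in control replicate 3, so its groups overlap after rescaling. None of them was called by limma at an adjusted p under 0.05, beside 0.477% of all genes. An unadjusted p under 0.05 was found for 4, all higher, beside 7.73% of all genes. The largest difference was that of STMN3, at 0.34 on the log2 scale (standard error 0.079, adjusted p = 0.131 from limma). STMN3 passed the filter of 1 FPKM only through its TAX libraries, with 0.986 and 0.882 FPKM in control replicates 1 and 2. The filter thus favoured a higher level in TAX for this gene, and nothing is read from its separation. ARFRP1, a GTPase of the Golgi apparatus whose end overlaps TNFRSF6B on the other strand, had 7.39, 7.70 and 5.89 FPKM in the controls, against 8.44, 9.54 and 8.86 FPKM after TAX. ZGPAT, a zinc finger protein, had 12.7, 12.2 and 8.61 FPKM in the controls, against 14.2, 13.4 and 13.2 FPKM after TAX, with its lowest value in control replicate 3. LIME1, a membrane adaptor of lymphocytes, was at 1.28 to 1.54 FPKM in control and at 1.70 to 2.05 FPKM in TAX libraries. SLC2A4RG had 25.6, 24.7 and 25.1 FPKM in the controls, against 28.4, 26.3 and 26.2 FPKM after TAX. Its difference was 0.097 on the log2 scale (standard error 0.075).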
